A study of Mus musculus with 4 samples.

Results

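The killer lectin-like receptor genes were taken as all mouse features whose symbol starts with Klra, Klrb, Klrc, Klrd, Klre, Klrg, Klri or Klrk. The rule uses names alone, and it found 26 of the 31053 mouse features. They are Klra1 to Klra10 and Klra17 (11 Ly49 genes, the Klra series), Klrb1, Klrb1a, Klrb1b, Klrb1c and Klrb1f (5 NKR-P1 genes), Klrc1, Klrc2 and Klrc3, Klrd1, Klre1, Klrg1 and Klrg2, Klri1 and Klri2, and Klrk1.

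These genes encode C-type lectin-like receptors of natural killer (NK) cells and of some T cells. CD94, the product of Klrd1, pairs with NKG2 proteins from the Klrc genes and reads Qa-1, an MHC class I molecule encoded by H2-T23 that displays signal peptides of other class I molecules. Ly49 receptors bind classical class I molecules, NKR-P1 receptors bind Clec2 proteins, NKG2D (Klrk1) binds stress-induced ligands, and KLRG1 binds cadherins. Inhibitory members carry a cytoplasmic motif that recruits phosphatases such as SHP-1 (Ptpn6), whereas activating members signal through adaptors, such as DAP12 (Tyrobp) or DAP10 (Hcst) for some of them.

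Single-cell RNA was read from 4 tumours of H605, a HER2-positive mouse mammary tumour cell line, grown in the mammary pad of FVB/NJ mice. The mice were 6 to 8 weeks old per a label filed under the name of cell type, and the tumours were taken at day 14. The hosts were wild type (WT, n = 2) or lacked Il1a, the gene of interleukin 1 alpha (Il1a-/-, n = 2), while the same H605 line was injected into both, so the deletion is in the host cells and not in the injected ones. Per the labels' protocols, the tissue was broken up with hyaluronidase and collagenase IV, freed of red cells and enriched for live cells before 10x Genomics 3' (v3.1) single-cell library preparation. The labels say that the tumours came in pairs on separate days, without tying the replicate number to the day. They name each sample as a replicate and do not say whether a sample is 1 mouse, so p-values measure only the spread between these samples.

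All 26 members lie on mouse chromosome 6 (mm10, GENCODE vM21), and 23 of them are on the negative strand. The 24 Klra to Klrk genes other than Klrg1 and Klrg2 fill 2.64 Mb, chr6:128609227-131247362. Klrd1 (chr6:129591782-129598775) sits beside Klrk1 (chr6:129610323-129623864) and the Klrc genes, and Klra4 lies at chr6:130043731-130067271. Klrg1 (chr6:122270596-122282882) and Klrg2 (chr6:38625693-38637242) lie apart from the cluster. The library reads the 3' ends of transcripts, and 15 members share 50-base stretches with other genes of the family in the last 500 bases of their transcripts. For Klrc1, 43.5% of those stretches recur in another member, against 15.2% for Klrc2 and 24.9% for Klrc3. For Klra7 the share was 22.1%, with the pseudogene Klra13-ps, and for Klri1 10.2%, with Klri2. It was only 6.96% for Klra1 and 4.66% for Klra4, which share with each other, and 3.1% for Klra6, with pseudogenes. The rest are Klra3, Klra8, Klra9 and Klra10, and Klrb1a, Klrb1b and Klrb1c. Reads of shared stretches may therefore have been divided between the genes or dropped. The levels of all these members are uncertain to that extent. FVB/NJ mice also differ from the C57BL/6 reference in this region, so a Ly49 symbol here names the reference gene to which reads were assigned.

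RefSeq promoters (250 bases before to 50 after the gene's start, GRCm38.p6) were at hand for 23 of the 26 members. Those of Klrc1, Klrc2 and Klrc3 are shown because these neighbouring genes share a transcript end, and Klrc1 and Klrc2 had the same direction of genotype difference in every lymphocyte gate described below. Klra1 and Klra4 are shown as an inhibitory and an activating Ly49 gene whose genotype difference itself differed between lymphocyte gates. All 5 are read 5' to 3' on the negative strand, and capitals mark matches on either strand to a short Runx motif (TGTGGT, or ACCACA on the other strand). A TATA motif (TATAAA, or TTTATA on the other strand) was also searched on both strands, and its letters are left in lower case.
Klrc1: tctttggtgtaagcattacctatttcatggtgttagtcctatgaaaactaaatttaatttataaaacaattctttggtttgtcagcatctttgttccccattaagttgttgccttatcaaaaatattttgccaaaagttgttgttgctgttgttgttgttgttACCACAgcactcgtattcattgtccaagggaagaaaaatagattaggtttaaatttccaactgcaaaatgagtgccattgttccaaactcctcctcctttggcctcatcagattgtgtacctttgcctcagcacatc
Klrc2: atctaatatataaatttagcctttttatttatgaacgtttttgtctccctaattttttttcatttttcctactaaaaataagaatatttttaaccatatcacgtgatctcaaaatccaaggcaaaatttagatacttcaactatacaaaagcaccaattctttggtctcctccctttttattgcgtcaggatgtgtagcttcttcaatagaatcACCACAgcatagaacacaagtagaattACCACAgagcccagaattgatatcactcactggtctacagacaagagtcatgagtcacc
Klrc3: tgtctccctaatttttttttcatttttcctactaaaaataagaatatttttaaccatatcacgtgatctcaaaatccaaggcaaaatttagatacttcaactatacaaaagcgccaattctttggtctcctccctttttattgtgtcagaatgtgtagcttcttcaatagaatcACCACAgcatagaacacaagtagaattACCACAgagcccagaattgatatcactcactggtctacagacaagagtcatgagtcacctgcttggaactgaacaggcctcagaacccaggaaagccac
Klra1: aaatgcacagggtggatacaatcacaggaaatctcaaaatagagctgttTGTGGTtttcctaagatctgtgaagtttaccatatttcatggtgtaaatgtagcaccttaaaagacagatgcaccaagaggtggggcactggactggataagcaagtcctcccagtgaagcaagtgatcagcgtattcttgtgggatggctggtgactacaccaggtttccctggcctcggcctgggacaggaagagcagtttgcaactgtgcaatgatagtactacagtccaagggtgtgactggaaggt
Klra4: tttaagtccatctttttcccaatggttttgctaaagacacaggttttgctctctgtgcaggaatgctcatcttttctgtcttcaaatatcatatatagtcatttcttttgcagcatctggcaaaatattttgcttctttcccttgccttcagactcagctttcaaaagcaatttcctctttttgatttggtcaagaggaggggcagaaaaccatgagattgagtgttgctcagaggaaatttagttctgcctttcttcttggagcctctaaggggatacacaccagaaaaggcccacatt
They span chr6:129678924-129679223 for Klrc1, chr6:129660547-129660846 for Klrc2, chr6:129643239-129643538 for Klrc3, chr6:130386825-130387124 for Klra1 and chr6:130067222-130067521 for Klra4. Klrc2 and Klrc3 have an identical run of 110 bases in these windows, whereas Klrc1 and Klrc2 share at most 12 bases in a row and Klra1 and Klra4 at most 7. The Runx letters start 36 and 9 bases upstream of the start of Klrc2, 76 and 49 bases upstream in Klrc3, 87 in Klrc1 and 201 in Klra1, and none was found in Klra4. The TATA letters matched at 2 overlapping places in Klrc1, 1 on each strand, and at 1 place in Klrc2, and not in the other 3 windows. Over all members, 8 of 23 promoters hold the Runx letters against 16.8% of all 32851 mouse promoters, and 8 of 23 hold the TATA letters against 13.6%. Each member counts with 1 promoter, whereas the background holds every distinct promoter of a gene. The Runx matches of Klrc2 and Klrc3 lie in their identical run of 110 bases. Member promoters are thus not independent of each other, and these shares are no measure of the family. A short T-box motif (AGGTGT, or ACACCT on the other strand, searched on both) was found in 1 of 23, that of Klrb1, against 13.7% of all promoters. A match is a description of letters and not of a bound site.

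The libraries held 23462739 and 28999819 mouse UMIs (unique molecular identifiers, tags that count captured transcripts) from WT hosts and 6704859 and 15297495 from Il1a-/- hosts. They gave 14039 called cells, of which 3130 to 3864 came from each sample. Il1a itself had 64 and 108 UMIs in called WT cells and 1 and 0 in Il1a-/- cells. Clusters that carried T and NK markers held 8582 cells and are called T/NK-like. Within them, NK-gated cells had Ncr1 and no Cd3 UMI, gamma-delta-gated cells had Trdc and Cd3, CD8-gated cells had Cd8a or Cd8b1 with Cd3, and CD4-gated cells had Cd4 with Cd3. Cells with an Ncr1 or Trdc UMI were left out of the CD8 and CD4 gates, whereas the gamma-delta gate kept cells with Ncr1. No member gene entered a gate or the clustering. The NK gate showed Trac, a T cell receptor gene, at 5.93 CPM (UMIs of the gene per 1000000 mouse UMIs of the gated cells) over all samples, against 522 in the CD8 gate, although Trbc1 was at 901 CPM and Trdc at 161 CPM. Ncr1 was at 319 CPM in the gamma-delta gate. Library pairs shared between 0 and 5 cell barcodes.

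Gate sizes and depths differed between the genotypes, which touches each result that follows. The NK gate held 691, 668, 353 and 309 cells, in the order WT replicates 1 and 2 and then Il1a-/- replicates 1 and 2, which is the order of every set of 4 values here. That was 34.5%, 29.5%, 15.5% and 15.2% of T/NK-like cells. The CD8 gate held 100, 224, 810 and 727 cells, or 4.99%, 9.90%, 35.6% and 35.7%. The NK share was thus lower and the CD8 share higher in both Il1a-/- tumours, with means ± SD of 32.0% ± 3.51 against 15.3% ± 0.241 and 7.44% ± 3.47 against 35.6% ± 0.0701 (n = 2 each). The smallest p that an exact two-sided permutation test of 2 against 2 samples can give is 0.333, and each share reached it. Genes said below not to overlap between the genotypes could give no smaller p in such a test. No overlap is therefore a description, and the share of all genes without overlap was not counted. With a stricter NK gate that also required no Trac, Trbc1 or Trbc2 UMI, the NK shares differed by 1.22 percentage points, higher in Il1a-/- tumours, in place of -16.7. That stricter gate held only 58, 31, 108 and 40 cells, the most in the shallowest library. The part of depth in this reversal was not tested. The gamma-delta gate held 195, 262, 60 and 117 cells and the CD4 gate 291, 373, 94 and 239. Median UMIs per NK-gated cell were 3184, 4126, 1137 and 2323, so Il1a-/- replicate 1 was the shallowest library.

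The members were mostly lymphocyte transcripts, with 2 clear exceptions. T/NK-like cells held 15660 of the 17143 Klrd1 UMIs found in called cells (91.3%), 5525 of 5844 for Klrc1 (94.5%), 4251 of 4350 for Klre1 and 989 of 1002 for Klrg1. Klra2, the inhibitory receptor Ly49B of myeloid cells, had only 4 of its 365 UMIs there and 349 (95.6%) in mononuclear phagocyte-like cells. Klra17, the receptor Ly49Q of plasmacytoid dendritic cells, had 2 of 483 there and 455 (94.2%) in plasmacytoid dendritic-like cells. Of the other members, 22 passed the low-count filter in T/NK-like cells. Klrb1 with 11 UMIs in all and Klrg2 with 25 UMIs did not. Klrc3, Klra10 and Klri1 passed it with 61, 50 and 88 UMIs in all called cells, too few for statements by gate.

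Most members tested were higher in NK-gated than in CD8-gated cells. Relative to CD8-gated cells, NK-gated cells had higher levels of all 4 NKR-P1 genes tested, of 6 of the 8 Ly49 genes tested, of Klre1, Klri2 and Klrg1, and of Klrk1, whereas the CD94/NKG2 genes Klrd1, Klrc1 and Klrc2 did not pass the test. In all, 15 of 19 members tested differed (14 higher and 1 lower, against 11.4% and 13.6% of all genes) in edgeR's quasi-likelihood test with sample as a block and Benjamini-Hochberg adjusted p under 0.05, where 24.9% of all 8309 genes did. The members' median log2 fold change was 3.85, against -0.0094 over all genes. Gamma-delta-gated cells differed from CD8-gated cells in 13 of 19 members, all higher, where 8.74% of all genes differed (4.57% higher and 4.16% lower). The CD8 gate left out cells with an Ncr1 UMI and the gamma-delta gate did not, and the part of that choice in this difference was not tested. NK-gated cells differed from gamma-delta-gated cells in 13 of 19, of which 11 were higher and 2 lower, where 4.53% of all genes differed (1.67% and 2.85%). These comparisons share the same samples, and each gate enters more than 1 of them. A gene was tested when it had enough UMIs in at least 1 gate. Members could thus enter through the gate where they are high, so these counts and the median are no measure of the family.

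CD94 and its NKG2 partners were detected in each of these gates. Klrd1 stood at 824, 711, 1126 and 1127 CPM in the NK gate, at 517, 453, 601 and 561 in the gamma-delta gate and at 157, 351, 1179.8 and 503 in the CD8 gate. The NK and CD8 ranges overlapped because Il1a-/- replicate 1 was as high in the CD8 gate as in the NK gate. The log2 fold change of NK over CD8 cells was 0.95 (SE 0.41, edgeR adjusted p = 0.0971). Klrc1, which encodes the inhibitory NKG2A, stood at 262, 159, 408 and 271 CPM in the NK gate, 162, 146, 319 and 344 in the gamma-delta gate and 132, 143, 494 and 275 in the CD8 gate. Its log2 difference was 0.16 (SE 0.36, edgeR adjusted p = 0.799) between NK and CD8 cells and 0.03 (SE 0.38, edgeR adjusted p = 0.995) between gamma-delta and CD8 cells. Klrc2, which encodes the activating NKG2C, gave 0.19 (SE 0.30) and 0.28 (SE 0.32) for the same contrasts. At these errors, differences of this size were not detectable.

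Klrk1 encodes NKG2D, an activating receptor that signals through DAP10. Its levels were 336, 393, 388 and 355 CPM in the NK gate, 165, 188, 123 and 194 in the gamma-delta gate and 38.6, 92.8, 152 and 149 in the CD8 gate. Every NK value lay above every gamma-delta and CD8 value. The log2 fold change was 1.71 (SE 0.26, edgeR adjusted p = 5.06e-05) over CD8 cells and 0.94 (SE 0.26, edgeR adjusted p = 0.0451) over gamma-delta cells. The second call was lost on leaving out WT replicate 1, WT replicate 2 or Il1a-/- replicate 1 (adjusted p = 0.0896, 0.133 and 0.0972, with Klrk1 at 0.97, 0.95 and 0.90).

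The NKR-P1 genes were close to absent from CD8-gated cells and graded between gamma-delta and NK cells. Klrb1b, the inhibitory member that binds Clec2d, had 380, 420, 146 and 252 UMIs in the NK gate and 1, 0, 6 and 8 in the CD8 gate. It stood at 145, 129.5, 333 and 320 CPM in NK cells and at 25.7, 28.0, 12.3 and 29.0 in gamma-delta cells. The log2 fold change was 6.84 (SE 0.32, edgeR adjusted p = 2.13e-12) for NK over CD8 cells and 2.61 (SE 0.24, edgeR adjusted p = 3.39e-07) for NK over gamma-delta cells. Klrb1c, the activating receptor NK1.1, stood at 235, 214, 221 and 252 CPM in NK cells, 105, 80.2, 49.0 and 58.1 in gamma-delta cells and 6.81, 4.64, 2.48 and 1.01 in CD8 cells. Those 3 gates did not overlap for Klrb1c. Klrb1a and Klrb1f, 2 further activating members, had log2 fold changes of 5.85 and 5.44 for NK over CD8 cells and of 1.55 and 1.52 for NK over gamma-delta cells. In the annotation, Klrb1c and Klrb1b overlap the same-strand gene Gm44511, so reads of these overlapping genes may have been left uncounted. Klrb1f overlaps other gene models on the opposite strand only.

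Among the Ly49 genes, Klra4 and Klra7 were the members with the most UMIs. Klra4, the activating Ly49D, had 867, 1116, 145 and 430 UMIs in the NK gate, or 332, 344, 331 and 547 CPM, and 4, 12, 2 and 3 UMIs in the CD8 gate. Klra7, the inhibitory Ly49G, stood at 202, 221, 214 and 216 CPM in the NK gate with 1, 24, 2 and 0 UMIs in the CD8 gate. Neither gene overlapped between the gates, and the log2 fold changes were 6.83 (SE 0.44) for Klra4 and 5.57 (SE 0.48) for Klra7. Klra1, the inhibitory Ly49A, was 3.85 higher on the log2 scale (SE 0.47, edgeR adjusted p = 3.25e-06). Klra3, Klra8 and Klra9 had 2, 1 and 3 UMIs in all CD8-gated cells, and the ratio of their NK to CD8 levels was 54.7 (95% counting interval 14.8 to 457), 98 (17.2 to 3911) and 136 (46.1 to 661). These ratios pool the UMIs of all samples, most from WT hosts in the NK gate and most from Il1a-/- hosts in the CD8 gate. They thus do not separate gate from genotype. Relative to gamma-delta cells, Klra4, Klra7 and Klra9 were higher in NK cells by 1.98, 1.57 and 1.5 on the log2 scale. The Klra7 call was lost without WT replicate 1 (1.80, edgeR adjusted p = 0.0843) or Il1a-/- replicate 1 (1.41, 0.0695), and the Klra9 call without WT replicate 1 (1.27, 0.141).

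Klra5 and Klra6 were lower in NK than in gamma-delta cells. Klra5, which encodes Ly49E, stood at 39.7, 44.8, 85.8 and 26.6 CPM in the gamma-delta gate and at 2.30, 14.5, 6.84 and 0 in the NK gate. Klra6, which encodes Ly49F, stood at 5.84, 17.4, 36.8 and 7.26 in the gamma-delta gate, at 11.4, 10.8, 0.620 and 1.26 in the CD8 gate and had 2, 2, 0 and 1 UMIs in the NK gate. The NK values of Klra5 did not overlap with its gamma-delta values, while its CD8 values (2.27, 18.6, 21.7 and 1.26 CPM) overlapped with the NK values and the difference between those gates did not pass (-0.64, edgeR adjusted p = 0.402). NK cells had 2.89 less Klra5 on the log2 scale than gamma-delta cells (log2 fold change -2.89, SE 0.45, edgeR adjusted p = 0.000387) and less Klra6 (-4.08, SE 0.74, edgeR adjusted p = 0.00192). Klra6 was also lower in NK than in CD8 cells, at -3.01 (SE 0.83, edgeR adjusted p = 0.0105). Without WT replicate 1 that last call was lost, narrowly (-2.89, edgeR adjusted p = 0.0502).

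Klre1 forms receptors with Klri1, which is inhibitory, or Klri2, which is activating. Klre1 stood at 339, 314, 356 and 319 CPM in the NK gate, 157, 131, 73.6 and 131 in the gamma-delta gate and 6.81, 47.9, 131 and 45.7 in the CD8 gate. Klri2 stood at 152, 124, 123 and 139 CPM in NK cells and at 2.27, 9.28, 16.1 and 12.1 in CD8 cells. The NK values of both genes lay above all others, with log2 fold changes over CD8 cells of 2.45 (SE 0.31) for Klre1 and 3.41 (SE 0.35) for Klri2. Klrg1, an inhibitory receptor for E-cadherin, was 2.65 higher in NK than in CD8 cells (SE 0.40, edgeR adjusted p = 5.16e-05) and 2.08 higher than in gamma-delta cells (SE 0.46, edgeR adjusted p = 0.00909).

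**Figure D1:**
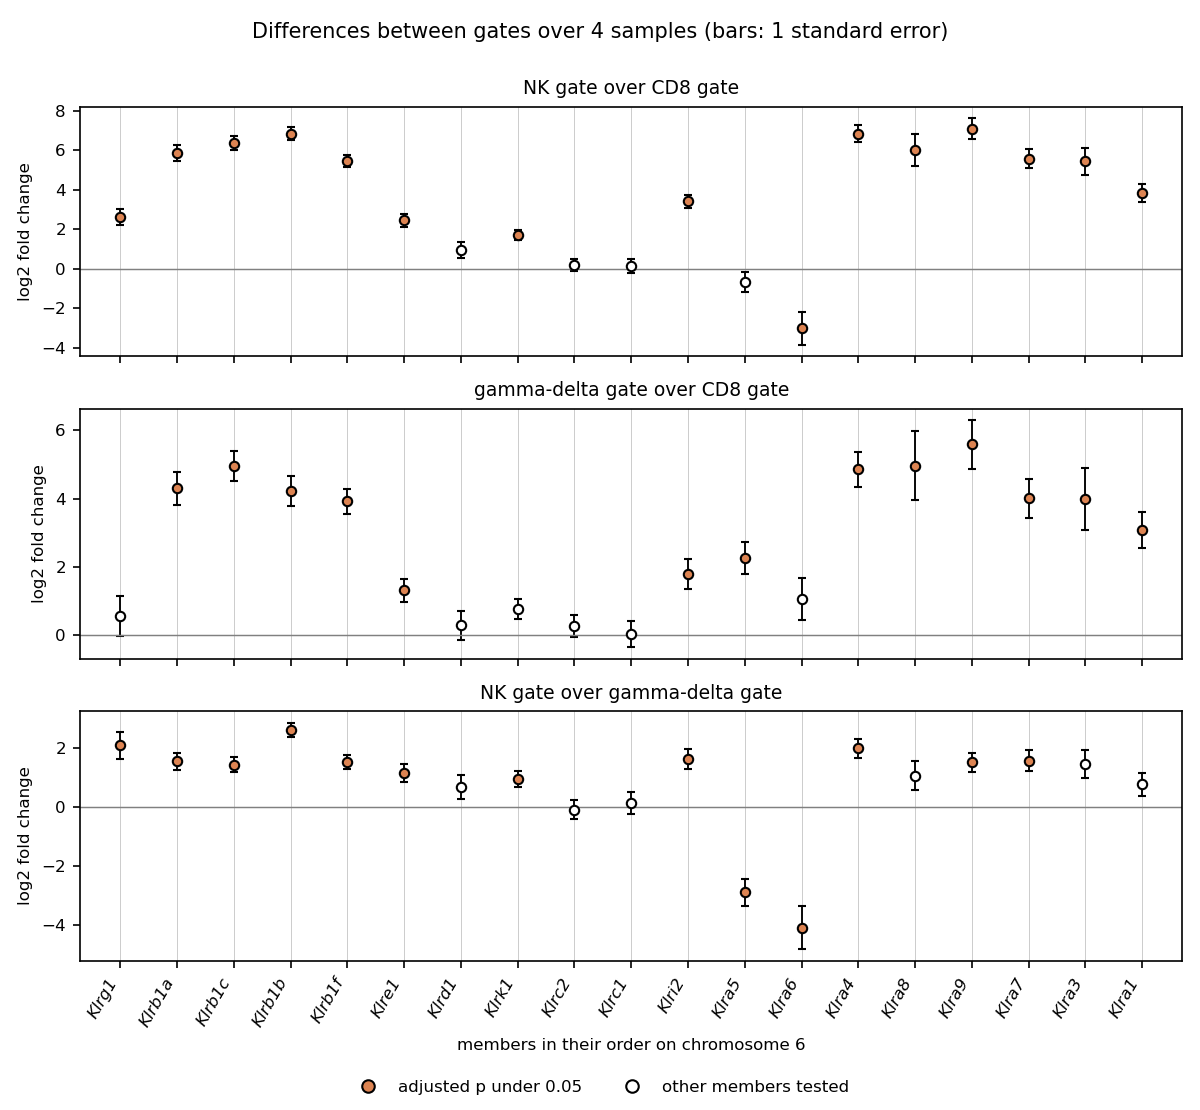
Log2 fold change with 1 standard error for each of 19 tested members, in chromosome order, between NK-gated, gamma-delta-gated and CD8-gated cells over the 4 samples; filled orange points passed an adjusted p of 0.05. Klrd1, Klrc1 and Klrc2 did not pass in any panel, while the NKR-P1 genes reach 5.44 to 6.84 for NK over CD8 cells.

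Relative to CD8-gated cells, CD4-gated cells had more Klrg1 and less of 6 other members. Klrg1 stood at 74.1, 58.1, 22.5 and 29.9 CPM in the CD4 gate and at 2.27, 13.1, 2.48 and 7.58 in the CD8 gate, with no overlap, and its log2 fold change was 2.92 (SE 0.42, edgeR adjusted p = 6.08e-05). It was 1 of 7 members of 19 that differed, where 12.7% of all genes did (7.55% higher and 5.18% lower). The other 6 were lower in CD4 cells, by log2 fold changes of -2.65 for Klrd1, -3.11 for Klrc1, -3.26 for Klrc2, -2.89 for Klrk1, -4.55 for Klre1 and -3.52 for Klra6. Without WT replicate 1 the Klra6 call was lost (-2.90, edgeR adjusted p = 0.154).

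**Figure D2:**
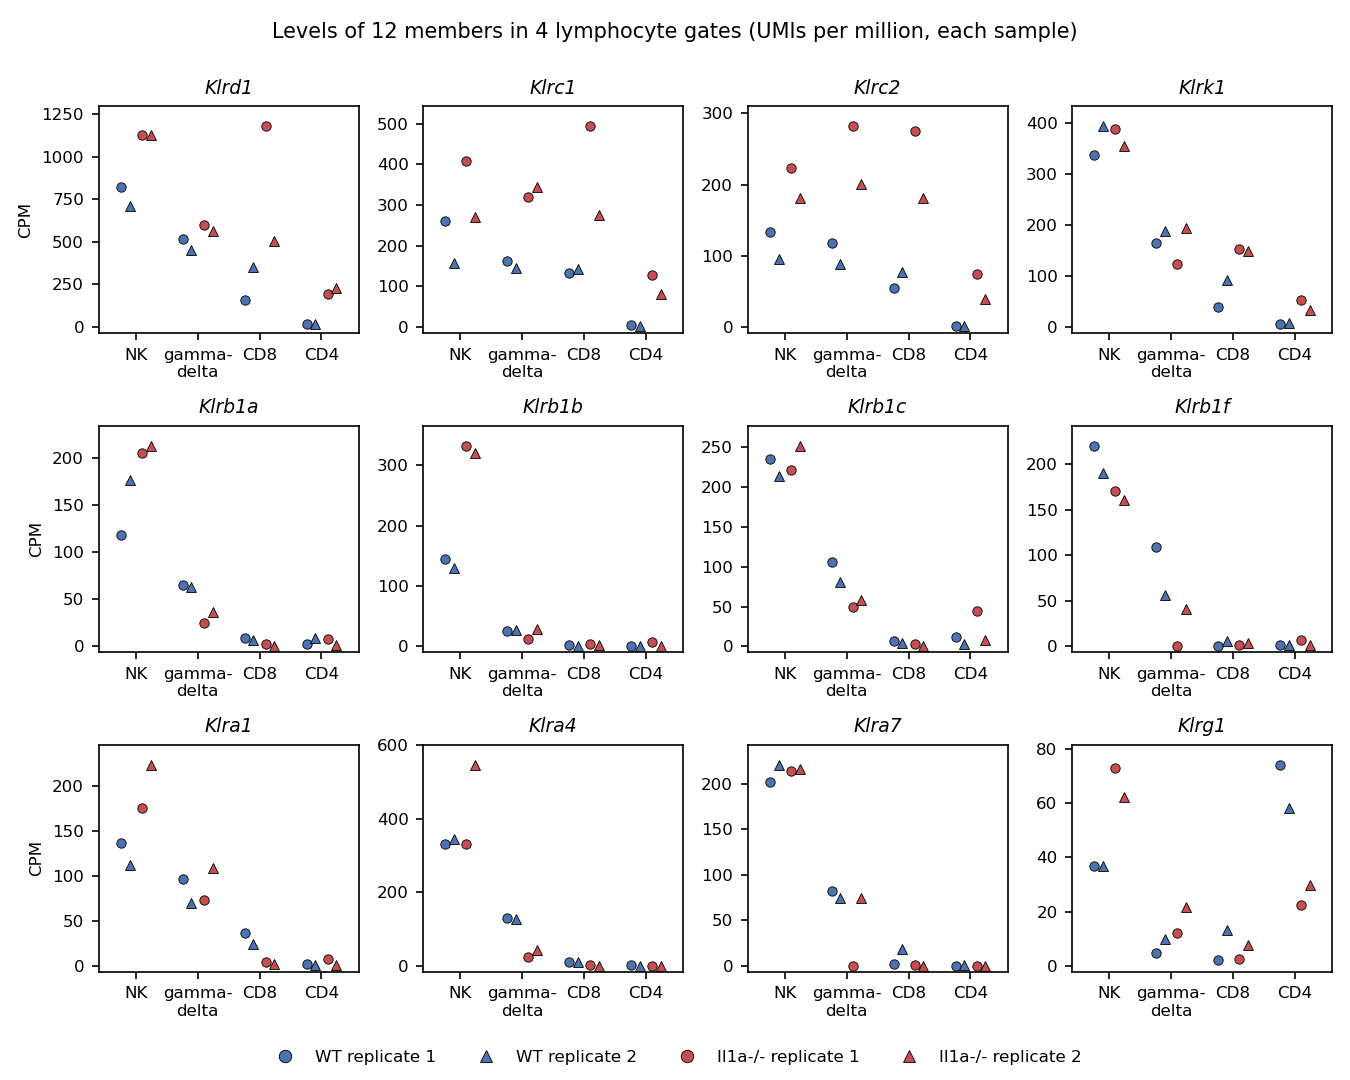
CPM per sample of 12 members in the NK, gamma-delta, CD8 and CD4 gates; blue marks WT and red Il1a-/- tumours, circles replicate 1 and triangles replicate 2. Klrb1b in the NK gate shows both Il1a-/- samples (333 and 320 CPM) above both WT samples (145 and 129.5), and Klrc1 in the CD4 gate is near 0 in WT and at 127 and 81.2 CPM in Il1a-/- tumours.

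In T/NK-like cells as a whole, the CD94 partners rose in Il1a-/- hosts and 4 other members fell. Klrc2 stood at 81.8, 62.3, 230.5 and 158 CPM and rose (log2 fold change 1.46, SE 0.22, edgeR adjusted p = 0.0179). Klrc1 stood at 155, 105, 400 and 239 CPM and rose by 1.33 (SE 0.27, edgeR adjusted p = 0.0398). Both genes were higher in each Il1a-/- sample than in each WT sample. Klrb1f, at 113, 79.7, 45.1 and 34.0 CPM, fell (-1.27, SE 0.21, edgeR adjusted p = 0.0223), as did Klrg1 (43.5, 39.4, 19.1 and 20.8 CPM, -1.01), Klrb1c (127, 94.4, 64.5 and 44.8 CPM, -1.0) and Klra7 (105, 104, 63.6 and 42.7 CPM, -0.96). None of these 4 overlapped between the genotypes. In all, 6 of 22 members passed the test, where 4.75% of all 10961 genes did (2.96% higher and 1.8% lower), and the members' median was -0.51 against -0.014 over all genes. In such sums, fewer cells of a type and less RNA per cell cannot be told apart. None of the 6 calls remained when WT replicate 1 or WT replicate 2 was left out (0 called in each case). Without the cluster led by Xcl1 and Gzmc, whose share of the NK gate differed between the genotypes, Klrb1f, Klrb1c and Klra7 were at -0.53, -0.36 and -0.47. Klrd1 (489, 403, 991 and 536 CPM, 0.80, edgeR adjusted p = 0.127) and Klrk1 (187, 199, 199 and 154 CPM, -0.10, edgeR adjusted p = 0.757) did not pass.

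Within NK-gated cells, 7 of 18 members rose in Il1a-/- hosts and none fell, where 16.1% of all 8760 genes passed (8.78% higher and 7.32% lower). The members' median was 0.42, against -0.0038 over all genes. Klrb1b, the inhibitory NKR-P1 gene, stood at 145, 129.5, 333 and 320 CPM. The genotypes did not overlap, and it rose by 1.22 (SE 0.16, edgeR adjusted p = 4.18e-06). In single cells, Klrb1b was found in 35%, 38.0%, 31.2% and 45.0% of NK-gated cells, and in 15.1%, 13.3%, 26.6% and 24.4% after each cell was thinned to 1000 UMIs, which left out 14, 13, 131 and 22 shallower cells. Fibroblast-like cells, which should lack the gene, showed Klrb1b in 0.270%, 0.917%, 0% and 0% of cells at median depths of 5993.5, 10579, 3151 and 7419 UMIs. The unthinned shares overlapped between the genotypes and the thinned shares did not. Klrb1b passed the test without each sample in turn.

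The other 6 members that rose in NK-gated cells belong to the CD94/NKG2, Ly49 and KLRG1 groups. Klrc2 stood at 133, 95.0, 223 and 182 CPM (0.79, SE 0.18, edgeR adjusted p = 0.00339), Klrd1 at 824, 711, 1126 and 1127 (0.53, SE 0.16, edgeR adjusted p = 0.0262) and Klrc1 at 262, 159, 408 and 271 (0.65, SE 0.20, edgeR adjusted p = 0.0276). In each the Il1a-/- samples lay above the WT samples, for Klrc1 by the narrowest margin. Klra1 stood at 137, 112, 176 and 224 CPM (0.68, SE 0.17, edgeR adjusted p = 0.00777), Klra9, which encodes Ly49I, at 51.3, 48.4, 73.0 and 91.5 (0.73, edgeR adjusted p = 0.0165) and Klrg1 at 36.7, 36.7, 73.0 and 62.3 (0.83, edgeR adjusted p = 0.0119). None of these overlapped between the genotypes. The activating Ly49 gene Klra4 (0.37, SE 0.18, edgeR adjusted p = 0.167) and the activating NKR-P1 genes Klrb1a (0.47, 0.0799), Klrb1c (0.06, 0.856) and Klrb1f (-0.34, 0.175) did not pass. Klrk1, Klre1 and Klra7 had fold changes within 0.02 of 0 on the log2 scale.

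Several of these NK calls were lost without 1 library or in a part of the gate. Without WT replicate 2, the calls of Klrc2 (0.56), Klrd1 (0.42), Klrc1 (0.32), Klra1 (0.53) and Klra9 (0.68) were lost. Leaving out Il1a-/- replicate 2 cost those of Klrd1 (0.50), Klra1 (0.45) and Klra9 (0.50), leaving out Il1a-/- replicate 1 those of Klrd1 (0.54), Klrc1 (0.36) and Klrg1 (0.75), and leaving out WT replicate 1 that of Klrd1 (0.60). The cluster led by Xcl1 and Gzmc held 47.6%, 52.1%, 13.0% and 0.971% of NK-gated cells, and the cluster led by Gzma and Prf1 held 34.6%, 35.2%, 55.5% and 84.5%. With the Xcl1-led cluster left out, Klrb1b was at 1.20 and Klra1 at 0.86, and Klrc2, Klrc1, Klrd1 and Klra9 still passed, whereas Klrg1 no longer did (0.75, edgeR adjusted p = 0.0575) and Klrb1a now did (0.68, edgeR adjusted p = 0.0278). Within the Gzma-led cluster alone, Klrb1b (174, 150, 371 and 288 CPM) was at 0.96 (edgeR adjusted p = 0.0140) and no other member passed. The 6 lost there were at 0.64 (Klra1), 0.68 (Klra9), 0.64 (Klrc2), 0.66 (Klrg1), 0.42 (Klrd1) and 0.46 (Klrc1), with edgeR adjusted p-values from 0.121 to 0.491. Under the stricter gate without T cell receptor UMIs none of the members tested passed in edgeR's test, and Klrb1b was at 1.18 (edgeR adjusted p = 0.319) while Klrc2 was at 0.13. That gate held only 58, 31, 108 and 40 cells. With DESeq2, 2 members passed in place of 7.

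In gamma-delta-gated cells, Klrc1 and Klrc2 rose in Il1a-/- hosts and Klra4 and Klri2 fell. These were the 4 of 16 members tested that passed, where 3.84% of all 6386 genes did (2.9% higher and 0.94% lower). Klrc1 stood at 162, 146, 319 and 344 CPM (1.1, SE 0.23, edgeR adjusted p = 0.00560) and Klrc2 at 118, 88.9, 282 and 201 (1.11, SE 0.26, edgeR adjusted p = 0.0161). Klra4 had 112, 203, 2 and 18 UMIs, or 131, 126, 24.5 and 43.5 CPM (-1.70, SE 0.33, edgeR adjusted p = 0.00398), and Klri2 had 47, 76, 3 and 2 UMIs (-2.29, SE 0.58, edgeR adjusted p = 0.0267). None of the 4 overlapped between the genotypes. The ratio of pooled Il1a-/- to WT levels was 0.316 (95% counting interval 0.190 to 0.497) for Klra4 and 0.202 (0.0646 to 0.485) for Klri2. The members' median was -0.14, against -0.020 over all genes.

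The Il1a-/- gamma-delta gates were small, with 60 and 117 cells, and a count of 0 in replicate 1 still allows 36.8 CPM. None of the 4 calls remained without WT replicate 1 (0 called), where Klrc1 was at 1.12, Klrc2 at 1.29, Klra4 at -1.72 and Klri2 at -2.20. Without WT replicate 2, Klrc1 (0.98) and Klrc2 (0.90) were lost, and without Il1a-/- replicate 2, Klrc1 (0.89) and Klri2 (-0.62) were lost. The Xcl1-led cluster held 22.6%, 31.3%, 1.67% and 0% of these cells. Without it Klrc1 still passed (1.12, edgeR adjusted p = 0.0241), while Klrc2 (1.05, edgeR adjusted p = 0.0539), Klra4 (-0.96, edgeR adjusted p = 0.454) and Klri2 (-1.67, edgeR adjusted p = 0.347) did not. Under a stricter gate that also required a Tcrg-C UMI, Klra4 was at 0.0058 (edgeR adjusted p = 0.999). Klrd1 (0.22, edgeR adjusted p = 0.667) and Klrk1 (-0.04, edgeR adjusted p = 0.964) did not pass.

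CD8-gated cells had more Klrc1 and Klrc2 in Il1a-/- hosts and less Klra1, Klra4 and Klra6. Klrc1 stood at 132, 143, 494 and 275 CPM and rose by 1.43 (SE 0.30, edgeR adjusted p = 0.0321). Klrc2 stood at 54.5, 77.3, 275 and 181 CPM and rose by 1.70 (SE 0.29, edgeR adjusted p = 0.0140). In both genes each Il1a-/- sample was above each WT sample. Klrd1 (157, 351, 1179.8 and 503 CPM) also showed no overlap but did not pass (1.65, SE 0.41, edgeR adjusted p = 0.0723), nor did Klrk1 (38.6, 92.8, 152 and 149 CPM, 1.06, edgeR adjusted p = 0.150). Klrc1 was found in 31.0%, 33.5%, 59.4% and 63.1% of CD8-gated cells, and in 10.2%, 13.9%, 38.1% and 27.6% after thinning to 1000 UMIs, which left out 2, 1, 90 and 13 cells. Fibroblast-like cells gave 0.541%, 2.29%, 0.352% and 0.749% before thinning and at most 0.498% after it. Median depths were 3558.5, 4686, 1656 and 3729 UMIs in CD8-gated and 5993.5, 10579, 3151 and 7419 in fibroblast-like cells.

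Of 4 Ly49 genes tested in CD8-gated cells 3 passed, on few UMIs, and Klra5 did not (-0.53, SE 0.98, edgeR adjusted p = 0.868). Klra1 had 16, 32, 6 and 8 UMIs, or 36.3, 24.7, 3.72 and 2.02 CPM (-3.48, SE 0.48, edgeR adjusted p = 0.00437). Klra6 had 5, 14, 1 and 5 UMIs (-3.32, SE 0.65, edgeR adjusted p = 0.0259), and Klra4 had 4, 12, 2 and 3 UMIs (-3.28, SE 0.70, edgeR adjusted p = 0.0361). In CPM, both Il1a-/- samples lay below both WT samples for all 3 genes. The pooled Il1a-/- to WT ratios were 0.0908 (95% counting interval 0.0462 to 0.167) for Klra1, 0.0983 (0.0321 to 0.256) for Klra6 and 0.0973 (0.0279 to 0.278) for Klra4. In all, 5 of 12 members tested passed, where 2.17% of all 8351 genes did (1.05% higher and 1.11% lower), with a members' median of 0.19 against -0.010 over all genes. A member was tested only with enough UMIs in at least 1 genotype, so the count is no measure of the family. The defining genes of the other gates, Ncr1 and Trdc, are at 0 in this gate by its construction. Tyrobp, which NK cells express, was at 43.2, 34.8, 12.4 and 13.6 CPM and also fell (-1.56, edgeR adjusted p = 0.0377), and the Xcl1-led cluster held 3%, 6.25%, 0.123% and 0% of the gate. Without that cluster Klra1 was at -3.29 (edgeR adjusted p = 0.00844) and Klra6 at -3.37 (edgeR adjusted p = 0.0284). Klra4, itself among the top genes of that cluster, then fell below the low-count filter and was not tested.

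The 2 genotypes filled the CD8 gate from different clusters. The cluster led by Ccl5 and Cd8b1 held 6.00%, 7.59%, 78.4% and 62.7% of CD8-gated cells, and the cluster led by Ms4a4b and Tcf7 held 58.0%, 52.7%, 6.67% and 3.03%. The top genes of the Ms4a4b-led cluster also include the gamma-delta receptor genes Trdc, Tcrg-C4 and Tcrg-C2. It held 32.8%, 29.8%, 21.7% and 2.56% of gamma-delta-gated cells. Its part in the Ly49 differences of the CD8 gate was not tested. Outside the Ccl5-led cluster, Klrc1 stood at 130, 145, 374 and 192 CPM (0.94, edgeR adjusted p = 0.0841) and Klrc2 at 45.0, 76.9, 235 and 141 (1.45, edgeR adjusted p = 0.0113). Both remained higher in each Il1a-/- sample, and the call of Klrc1 was lost. Without WT replicate 1 none of the 5 CD8 calls remained, and the same was true without WT replicate 2. Klrc1 was then at 1.38 and 1.51, Klrc2 at 1.51 and 2.03, and Klra1 at -3.24 (edgeR adjusted p = 0.0532) and -3.77 (edgeR adjusted p = 0.0796). Klra4 was also lost without either Il1a-/- sample (-3.50 and -2.81), and Klra6 without Il1a-/- replicate 1 (-3.06).

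CD4-gated cells of Il1a-/- hosts had more Klrd1, Klrc1, Klrc2 and Klrk1 than those of WT hosts, and less Klrg1. Klrd1 stood at 16.6, 15.9, 195 and 226 CPM and rose by 3.76 (SE 0.26, edgeR adjusted p = 2.63e-07). Klrc1 had 5, 3, 17 and 57 UMIs, or 4.36, 1.41, 127 and 81.2 CPM, and Klrc2 had 1, 3, 10 and 28 UMIs. Neither overlapped between the genotypes, and the pooled Il1a-/- to WT ratios were 36.3 (95% counting interval 17.5 to 87.2) for Klrc1 and 37.3 (13.4 to 144) for Klrc2. Both passed the test (5.20, SE 0.46, edgeR adjusted p = 5.96e-06 and 5.20, SE 0.61, edgeR adjusted p = 9.35e-05). Klrk1, with 6, 17, 7 and 23 UMIs, rose by 2.43 (SE 0.48, edgeR adjusted p = 0.00495). Klrg1 fell, from 74.1 and 58.1 to 22.5 and 29.9 CPM (-1.15, SE 0.33, edgeR adjusted p = 0.0451). These were 5 of the 6 members that passed the low-count filter, which a member passed only with enough UMIs in at least 1 genotype, so the count is no measure of the family. Of all 7429 genes, 5.71% passed (4.0% higher and 1.71% lower).

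The cluster led by Ccl5 and Cd8b1, in which most CD8-gated cells of Il1a-/- hosts lay, held 2.06%, 1.61%, 41.5% and 31.8% of CD4-gated cells. Inside it Klrd1 was at 308 and 496 CPM in the Il1a-/- samples. Outside it Klrd1 stood at 15.1, 15.6, 130 and 124 CPM (3.07, edgeR adjusted p = 0.000560) and Klrc1 at 1.77, 1.42, 59.1 and 37.3 CPM (4.69, edgeR adjusted p = 0.00362). Both were still higher in each Il1a-/- sample. Klrk1 (1.91, edgeR adjusted p = 0.130) and Klrg1 (-0.64, edgeR adjusted p = 0.348) did not pass there. Without WT replicate 1 none of the 5 calls remained, with Klrd1 at 3.75 (edgeR adjusted p = 0.0611), Klrc1 at 5.92 (edgeR adjusted p = 0.0611), Klrc2 at 4.98, Klrk1 at 2.20 and Klrg1 at -1.02. The Klrk1 call was also lost without Il1a-/- replicate 2 (2.85), and that of Klrg1 without any 1 of the 4 samples (-1.59 to -1.02). The part of doublets and of undetected Cd8 transcripts in these cells was not tested.

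**Figure D3:**
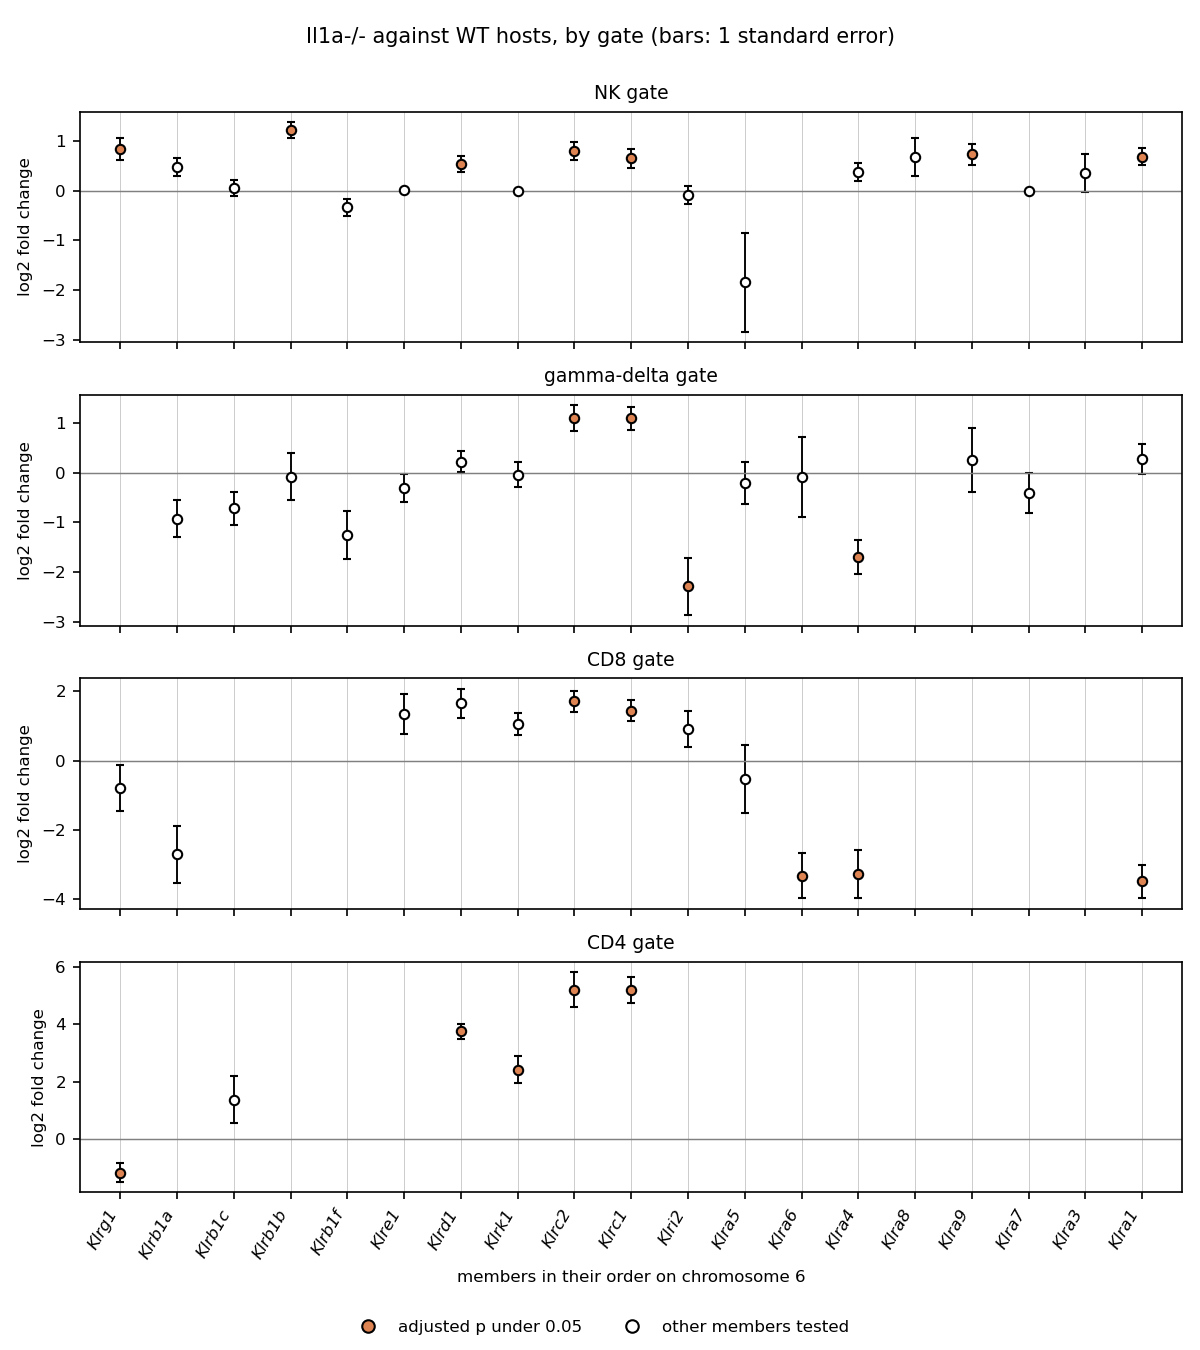
Log2 fold change with 1 standard error of Il1a-/- against WT tumours for each member in the NK, gamma-delta, CD8 and CD4 gates; filled orange points passed an adjusted p of 0.05, members below the low-count filter of a gate have no point, and Klre1, Klrk1 and Klra7 in the NK gate, within 0.02 of 0, have no bar. Klrc1 and Klrc2 lie above 0 in all 4 panels (0.65 and 0.79 in the NK gate, 5.20 and 5.20 in the CD4 gate), and Klra1 lies at 0.68 in the NK gate and -3.48 in the CD8 gate.

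The genotype difference itself differed between gates for several Ly49 genes. In an edgeR model of the 4 gates with sample as a block, Klra1 differed between NK and CD8 cells by 4.21 on the log2 scale (SE 0.42, edgeR adjusted p = 5.77e-07). So did Klra4 (3.71, SE 0.62, edgeR adjusted p = 0.000714), Klra7 (4.97, SE 0.94, edgeR adjusted p = 0.00282) and Klrb1a (3.09, SE 0.75, edgeR adjusted p = 0.0212), all higher in NK cells. Klrk1 differed the other way (-1.09, SE 0.26, edgeR adjusted p = 0.0187). These are 5 of 19 members, where 2.88% of all 8309 genes passed (1.23% higher and 1.65% lower). Between gamma-delta and CD8 cells, 3 of 19 passed, where 0.867% of all genes did (0.493% higher and 0.373% lower). They were Klra1 (3.76, edgeR adjusted p = 6.52e-05), Klra7 (4.57, edgeR adjusted p = 0.0302) and Klri2 (-3.12, edgeR adjusted p = 0.0395). Between NK and gamma-delta cells only Klra4 passed (2.24, SE 0.34, edgeR adjusted p = 0.00622), where 0.0241% of all genes did. For Klrc1 and Klrc2 the difference between NK and CD8 cells was -0.69 (edgeR adjusted p = 0.184) and -0.80 (edgeR adjusted p = 0.0980), so their genotype differences were not shown to differ between these gates.

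Klra1 in NK against CD8 cells passed under each of the 17 settings tried, from 3.44 to 4.65. The others were each lost without at least 1 library. For Klra4, Klra7 and Klrb1a the CD8 gate held 21, 27 and 19 UMIs in all, and for Klrk1 it held 970. Without Il1a-/- replicate 2, the NK and CD8 difference of Klra4 was at 2.76, of Klra7 at 3.40, of Klrb1a at 1.93 and of Klrk1 at -1.01, and none of these 4 passed. Without WT replicate 2, Klra4 (3.71), Klra7 (2.45) and Klrb1a (3.75) were lost, and without WT replicate 1, Klrb1a (2.80) and Klrk1 (-0.79). For gamma-delta against CD8 cells, Klra1 was lost without Il1a-/- replicate 2 (2.60), Klra7 without WT replicate 2 (1.85) or Il1a-/- replicate 2 (-6.28), and Klri2 without WT replicate 1 (-2.73) or Il1a-/- replicate 2 (-1.72). The NK and gamma-delta difference of Klra4 was lost without Il1a-/- replicate 2 (2.54). Without the Xcl1-led cluster that difference (1.53, edgeR adjusted p = 0.697) and the gamma-delta and CD8 difference of Klri2 (-2.39, edgeR adjusted p = 0.289) did not pass either.

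Among genes that act with the receptors, the phosphatase gene Ptpn6 differed between the genotypes in 3 gates. Ptpn6 stood at 262, 231, 84.4 and 64.8 CPM in NK-gated cells, at 241, 227, 98.1 and 77.4 in gamma-delta-gated cells and at 195, 168, 96.1 and 57.4 in CD8-gated cells. The genotypes did not overlap in any of them, and Ptpn6 fell by 1.79 (SE 0.19, edgeR adjusted p = 2.35e-07), 1.53 (edgeR adjusted p = 0.00178) and 1.29 (edgeR adjusted p = 0.0412) on the log2 scale. In CD4-gated cells Ptpn6 was at 77.5, 65.6, 75.0 and 55.5 CPM with overlap. Of the 19 genes listed as adaptors and signalling proteins, 17 were tested in NK cells, where 6 rose (Hcst 0.62, Syk 0.67, Fyn 0.72, Cd247 0.75, Plcg2 0.76 and Inpp5d 0.51) and only Ptpn6 fell. The median of the listed genes was 0.16, against -0.0038 over all genes, of which 16.1% passed (8.78% higher and 7.32% lower). In gamma-delta cells only Ptpn6 of 18 passed, in CD8 cells Ptpn6 and Tyrobp of 15, both lower, and in CD4 cells only Hcst of 14 (1.20, higher). Of all genes, 3.84%, 2.17% and 5.71% passed in these gates. Over all T/NK-like cells Fcer1g (-1.11), Ptpn6 (-1.29) and Sh2d1b1 (-1.18) of 18 fell, where 4.75% of all genes passed (1.8% lower).

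Of 17 listed ligands of the receptors, 8 were tested in NK-gated cells and 3 passed, where 16.1% of all genes did. H2-K1 (0.51, edgeR adjusted p = 0.0457) and H2-T23 (0.49, edgeR adjusted p = 0.0489) rose, and Cdh1, the E-cadherin ligand of KLRG1, fell (-2.39, edgeR adjusted p = 4.27e-05). H2-T23, which encodes Qa-1, stood at 109, 123, 176 and 160 CPM there, without overlap, and Cdh1 at 65.8, 54.9, 22.8 and 5.09. In gamma-delta cells Cdh1 was the only 1 of 6 to pass (-3.08), in CD8 cells Clec2i the only 1 of 8 (-1.91), and in CD4 cells none of 6 passed. The shares over all genes were 3.84%, 2.17% and 5.71% in these gates. In mononuclear phagocyte-like cells none of 8 passed in edgeR's test. Over all T/NK-like cells H60b, a ligand of NKG2D, rose (9.13, 7.03, 15 and 25.1 CPM, 1.41) and Clec2i, the ligand of the Klrb1f product, fell (64.8, 53.3, 25.2 and 23.6 CPM, -1.24), out of 8 tested. There 4.75% of all genes passed.

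Genes listed for the NK lineage changed in both directions within the gates. Of 16, Ccl5 (1.58), Prdm1 (1.06), Gzma (0.80) and Txk (0.67) rose and Xcl1 (-1.45) and Id2 (-0.55) fell in NK-gated cells. In gamma-delta cells Ccl5 and Nfil3 rose and Gzmc and Xcl1 fell, and in CD8 cells Ccl5, Gzmb and Id2 rose and Xcl1 fell (-4.55). In CD4 cells Ccl5, Gzmb, Nfil3 and Tbx21 rose and Xcl1 fell, out of 12 tested. Of 7 genes typical of type 1 innate lymphoid cells, all tested in NK-gated cells, Inpp4b (-2.05) and Tnfsf10 (-1.88) fell and Il7r rose (1.28), with a median of -0.33. The same 3 passed, in the same directions, in gamma-delta cells. In CD8 cells Itga1 rose (1.82), and in CD4 cells none of the 7 passed. Of all genes, 16.1% passed in NK (8.78% higher and 7.32% lower), 3.84% in gamma-delta, 2.17% in CD8 and 5.71% in CD4 cells. The part of the changes in these 2 lists in the receptor results was not tested.

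Outside the lymphocytes, Klra2 and Klra17 did not differ detectably between the genotypes. Klra2 had 67, 200, 33 and 49 UMIs in mononuclear phagocyte-like cells, or 34.5, 53.2, 95.3 and 28.2 CPM, so the Il1a-/- samples were both the highest and the lowest. Its log2 fold change was 0.19 (SE 0.47, edgeR adjusted p = 0.891). None of 5 members tested passed in phagocytes with edgeR (0 at an unadjusted p of 0.05, 0 with DESeq2), where 0.536% of all genes did. Klra17 stood at 219, 178, 185 and 175 CPM in plasmacytoid dendritic-like cells (-0.13, SE 0.22, edgeR adjusted p = 0.856). Klrd1 was also found there, at 392.5, 232, 418.5 and 320 CPM (0.24, SE 0.24, edgeR adjusted p = 0.716), against 8.47, 4.33, 4.55 and 5.95 in fibroblast-like cells. None of 3 members tested passed in these cells with edgeR (1 at an unadjusted p of 0.05, 0 with DESeq2), where 2.15% of all genes did.

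Low levels of Klrk1 and Klrb1b were seen in other myeloid classes. Klrk1 stood at 51.8, 91.8, 119 and 62.6 CPM in conventional dendritic-like cells, above the 4.46, 2.17, 0 and 0.992 CPM of fibroblast-like cells. Klrb1b, whose T/NK-like share was 86.5%, had 203 UMIs (9.76%) in phagocyte-like cells, at 19.6, 31.4, 40.4 and 19.0 CPM. Klrk1 in phagocyte-like cells was at 11.8, 28.2, 52.0 and 14.4 CPM. In each of these sets the Il1a-/- replicate 1 value was the highest of the 4.

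**Figure D4:**
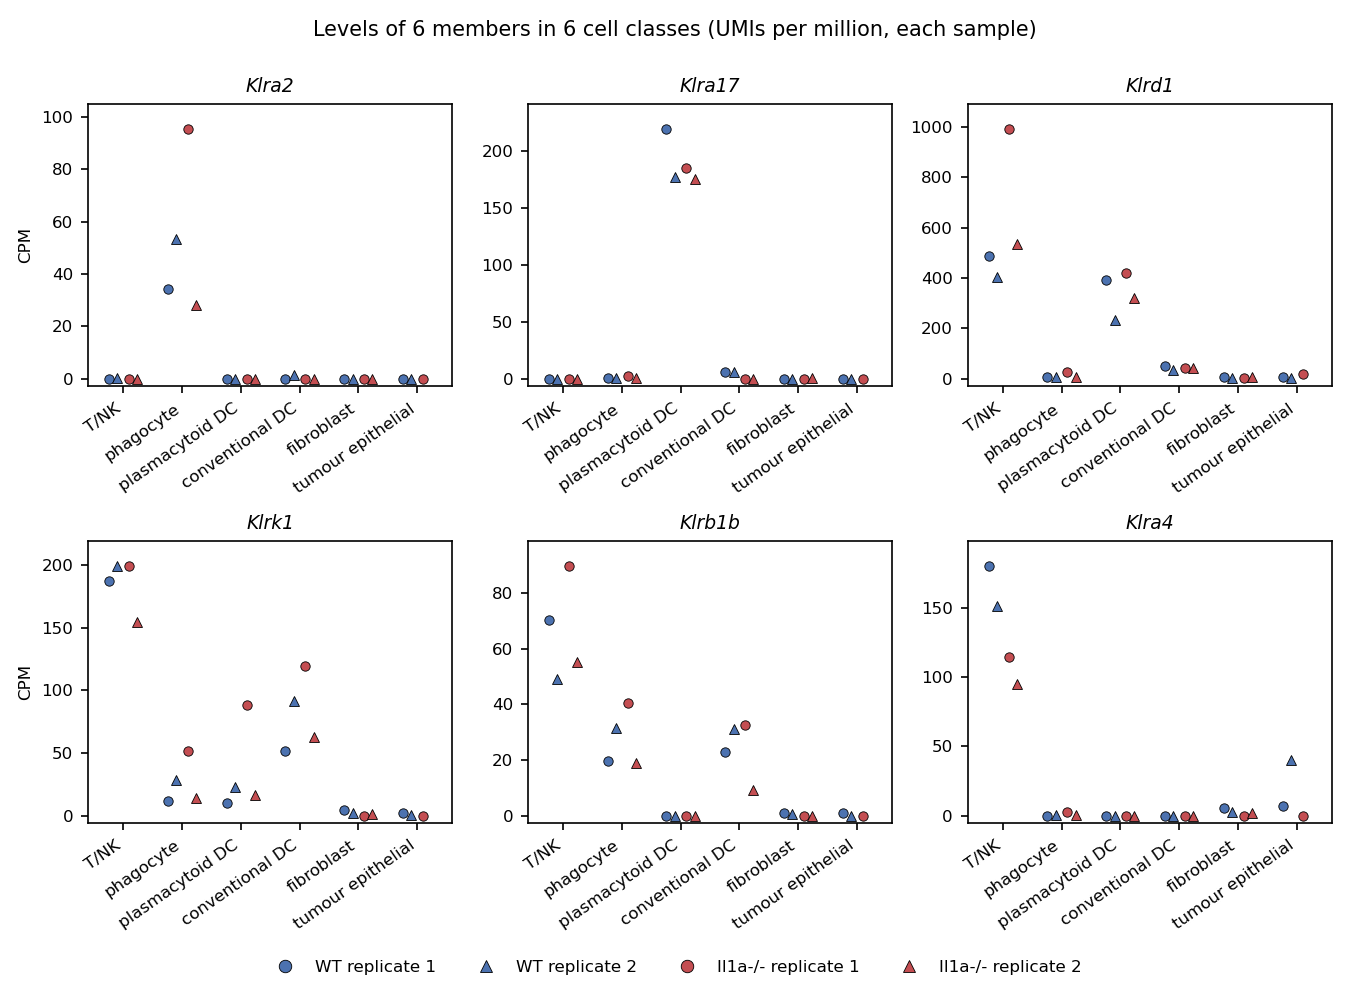
CPM per sample of Klra2, Klra17, Klrd1, Klrk1, Klrb1b and Klra4 in 6 cell classes; blue marks WT and red Il1a-/- tumours, circles replicate 1 and triangles replicate 2, and tumour epithelial-like cells were absent from Il1a-/- replicate 2. Klra2 is highest in mononuclear phagocyte-like cells (28.2 to 95.3 CPM) and Klra17 in plasmacytoid dendritic-like cells (175 to 219 CPM).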

How the data were processed

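The deposited values are raw UMI counts per gene and barcode, made by the authors with Cell Ranger 3.1.0 and the mouse build mm10, per the submitters' processing notes. Feature names carry prefixes of a combined human and mouse reference, and only mouse features were used. The chemistry is stranded per its design, but the counting options are not given in the sources used here.

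Barcodes needed 500 UMIs, 250 genes and a mitochondrial share of no more than 20%, and were tested against the profile of barcodes with at most 100 UMIs (10000 simulations, false discovery rate 0.001, barcodes from 5000 UMIs kept). The mitochondrial limit removed 213, 141, 19 and 27 barcodes (WT replicates 1 and 2, then Il1a-/- replicates 1 and 2), and the free-RNA test 10, 62, 0 and 22. The highest doublet scores from Scrublet (0.8% per 1000 cells) took out 127, 124, 83 and 88. Cells were clustered on 2000 variable genes without members and gate genes, with 30 principal components, 15 neighbours and Leiden resolution 1 (scanpy 1.11.5, leidenalg 0.10.2, Python 3.11.15). Clusters were named from marker lists by a rule set after the clusters were seen (a marker at 50 CPM and in 10% of cells, at least 3 markers, a score 2 times the next). A cluster of 911 cells led by S1pr1 and Ccr7 stayed unnamed and was left out of the gates.

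UMIs were summed per sample and gate, in classes with at least 20 cells per sample, and tested with edgeR 4.0.16 (R 4.3.3; filterByExpr, TMM, quasi-likelihood, Benjamini-Hochberg over all genes tested, threshold 0.05). The low-count filter keeps a gene with enough UMIs in at least 1 group, so members can enter a test through the group where they are high. Gates were compared in 1 model of the NK, gamma-delta, CD8 and CD4 gates with sample as a block. Log2 fold changes have standard errors derived from the test. CPM intervals and ratios of few counts cover counting error only (95%). The alternatives were DESeq2 1.42.0, other filters, scalings and gates, and leaving out each sample or cluster. On simulated data made from these samples, the T/NK-like comparison recovered 60 of 100 genes changed by 1 on the log2 scale and 96 of 100 changed by 2, and the comparison within NK-gated cells 52 and 84. The test of the genotype difference between NK and CD8 gates recovered 0 of 100 at 1 and 39 of 100 at 2. For that test the simulated spread between samples (dispersion) was set to 0.05 and not estimated. All gates had the same mean profile before the change, so recovery in the real gates may differ.

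Each member was named, those past the filter in T/NK-like cells one by one and the rest by total UMIs, and genes of the 4 lists of ligands, adaptors, NK lineage and innate lymphoid genes were named when they passed. The members, lists and tests were chosen with earlier results of these data known. Sequences are from RefSeq tables, which gave none for Klrg1, Klrd1 and Klri2.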

Additional observations from a re-analysis of the deposited data

Results flagged for a closer look

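The genotype difference of 7 members differed between gates in edgeR's test of the difference itself, with adjusted p-values named above. For NK against CD8 cells the differences were 4.21 for Klra1, 3.71 for Klra4, 4.97 for Klra7, 3.09 for Klrb1a and -1.09 for Klrk1. For gamma-delta against CD8 cells they were 3.76 for Klra1, 4.57 for Klra7 and -3.12 for Klri2. For NK against gamma-delta cells the difference was 2.24 for Klra4. The CD8 gate held 62 Klra1, 21 Klra4, 27 Klra7 and 19 Klrb1a UMIs in all 4 samples, so the differences of these genes from CD8 cells rest on few counts, whereas it held 970 Klrk1 UMIs.

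Some members also showed a signal in classes that no comparison used, above the level in fibroblast-like cells of the same sample. In conventional dendritic-like cells Klrk1 stood at 51.8 CPM in WT replicate 1, 91.8 in WT replicate 2 and 62.6 in Il1a-/- replicate 2, against 4.46, 2.17 and 0.992 in fibroblast-like cells. Klrd1 stood at 51.8 CPM there in WT replicate 1 and at 35.8 in WT replicate 2, against 8.47 and 4.33. Klrb1b stood at 31.1 CPM in WT replicate 2, against 0.722. In tumour epithelial-like cells of WT replicate 2, the Ly49D gene Klra4 had 172 UMIs, or 39.9 CPM, against 2.89 in fibroblast-like cells and 7.07 in the tumour epithelial-like cells of WT replicate 1. Il1a-/- replicate 1 had 23 such cells without a Klra4 UMI and Il1a-/- replicate 2 had none.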

How the results depend on the processing

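Leaving out 1 sample at a time gave 0 to 11 members passing in T/NK-like cells (6 reported), 3 to 7 in NK (7), 0 to 4 in gamma-delta (4), 0 to 8 in CD8 (5) and 0 to 4 in CD4 cells (5), with the low ends without WT replicate 1 or WT replicate 2 except where named in the report. It gave 0 to 1 in plasmacytoid dendritic-like cells (0), 12 to 15 for NK against CD8 (15), 9 to 13 for gamma-delta against CD8 (13), 10 to 12 for NK against gamma-delta (13) and 6 to 12 for CD4 against CD8 cells (7, with 12 without Il1a-/- replicate 2). For the genotype difference it gave 2 to 5 between NK and CD8 (5), 1 to 5 between gamma-delta and CD8 (3) and 0 to 1 between NK and gamma-delta cells (1).

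DESeq2 called 2 members in NK, 0 in gamma-delta, 3 in CD8 and 2 in CD4 cells, 8 for NK against gamma-delta, and 3, 1 and 0 for the 3 genotype differences in that order. Without the low-count filter the counts were 12 in T/NK-like, 9 in CD8 and 1 in plasmacytoid dendritic-like cells, 13 for CD4 against CD8, and 6 for the genotype difference of gamma-delta and CD8 cells. Stricter gates gave 0 in NK, 2 in gamma-delta, 3 in CD8 and 3 in CD4 cells and 1, 1 and 0 for the genotype differences, and looser gates 0 for the last. Removing no doublets gave 2 in CD8 cells, and gating without clustering 3 in CD4 cells. Alternatives on clusters and library-size scaling were chosen after seeing the data. Without the Xcl1-led cluster 3 passed in T/NK-like and 1 in gamma-delta cells, and 0 for the NK and gamma-delta difference. Without the Ccl5-led cluster 1, 2 and 2 passed in T/NK-like, CD8 and CD4 cells, and 3 for the NK and CD8 difference, which was 8 without the Mki67-led cluster. With the S1pr1-led cluster 5 passed for the gamma-delta and CD8 difference, and within the Gzma-led cluster 1 passed in NK cells.

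The difference in NK share (-16.7 points) was -12.9 without clustering, -7.13 without the Xcl1-led and -8.75 without the Ccl5-led cluster, and turned to 1.22 with the stricter gate. The stricter NK gate held 31 to 108 cells per sample. The difference in CD8 share (28.2) was 33.5 in cells with at least 1000 UMIs, 23.2 without clustering, and 24.4 and 9.04 without the Mki67-led and Ccl5-led clusters. Some single members changed sign. Over the samples left out, Klrk1 in T/NK-like cells ranged from -0.27 to 0.055, Klra4 in NK cells from -0.082 to 0.68, Klra2 in phagocytes from -0.56 to 1.03 (-0.044 without WT replicate 1), Klra17 in plasmacytoid dendritic-like cells from -0.29 to 0.047, Klrd1 there from -0.11 to 0.69, and Klra7 for the gamma-delta and CD8 difference from -6.28 to 7.50. Klrk1 in T/NK-like cells was also at 0.42 without the Xcl1-led cluster, Klrb1f in NK cells at 0.027 in the Gzma-led cluster alone, and with stricter gates Klra4 in gamma-delta cells was at 0.0058 and Klri2 for gamma-delta against CD8 cells at -0.33. The cause was not tested. Of the other values of single members, 1402 kept direction and side of the threshold, 178 kept only the direction and lost the call, and 35 gained one.

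With the replicate number as a block, 11 members passed in T/NK-like, 9 in NK, 3 in gamma-delta, 7 in CD8 and 5 in CD4 cells, and 1 in plasmacytoid dendritic-like cells. Klrd1 (1.60, edgeR adjusted p = 0.0381) and Klrk1 (1.14, edgeR adjusted p = 0.0421) then passed in CD8 cells, and Klri2 (-2.19, edgeR adjusted p = 0.0902) no longer did in gamma-delta cells. The deviations of same-numbered samples correlated at 0.190 over genes in T/NK-like and 0.101 in gamma-delta cells but at -0.0189 to 0.0640 in the NK, CD8, CD4 and phagocyte classes, and 2 pairs cannot show a pairing. Over all genes, calls in CD4 cells were 70.0% higher of 424 as reported and 81.5% higher of 151 with DESeq2, and for the NK and CD8 difference 42.7% of 239 and 56.1% of 148. Depth limits the gamma-delta and CD4 gates of Il1a-/- replicate 1, where 0 UMIs allow up to 36.8 and 22.5 CPM.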

Other observations

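T/NK-like cells that met no gate, 3069 in all, still held Ly49 transcripts. Summed over the Ly49 genes, they were at 365, 373, 497.5 and 356 CPM in WT replicates 1 and 2 and Il1a-/- replicates 1 and 2, with overlapping genotypes, against 754, 772, 834 and 1128 CPM in the NK gate. The NKR-P1 genes summed to 719, 711, 932 and 946 CPM in the NK gate, where both Il1a-/- samples were higher, and to 378, 299, 254 and 169 CPM over all T/NK-like cells, where both were lower. No test was made of these sums.

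The unnamed cluster led by S1pr1 and Ccr7, with Tcf7, Lef1, Satb1 and Il7r also among its top genes, carried the CD94/NKG2 genes at lower levels than the NK gate. Klrd1 stood at 136, 80.9, 263 and 259 CPM, Klrc1 at 54.7, 64.2, 121 and 151 CPM and Klrk1 at 41.4, 36.3, 155 and 103 CPM. All 3 were higher in both Il1a-/- samples than in both WT samples, as values with no test.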
